A study of Mus musculus with 23 samples.

Results

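Genes of the vessel wall were followed in the ventricles of mice that overexpress the mineralocorticoid receptor in cardiomyocytes and of their controls. The genes were 34, listed by symbol as markers of endothelial cells (23 genes) or of mural cells, the smooth muscle cells and pericytes around the endothelium (11 genes), and each was taken as the average of the array probes that bear its symbol. Probes were found for 33 of the 34, among 21892 genes measured in all. The 23 endothelial genes were all measured, as were 10 of the mural genes. No probe bore the symbol Ednra, the smooth muscle receptor of endothelin 1, so it has no value here.

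There were 4 groups: MR-Cardio with aldosterone (6 mice), MR-Cardio untreated (7 mice), Ctrl with aldosterone (5 mice) and Ctrl untreated (5 mice). All mice were male, MR-Cardio mice carry the receptor transgene with cardiomyocytes as its target, Ctrl mice are non-transgenic, and a treatment duration of 7 days stands on every label, the untreated groups included. The sources used here do not give the transgene's promoter, the number of founder lines, the age or the dose. RNA came from whole ventricles, 1 mouse per array, and each value is the log2 ratio of heart RNA over that of a pool of spleen, kidney, brain, liver and heart. A value of 1 therefore means a level in heart that is 2-fold that of the pool, and ratios of different genes cannot be ranked as levels, since the pool differs from gene to gene. In whole ventricle, fewer cells of a type and less RNA per cell cannot be told apart. The design asks which cardiac genes the receptor changes and which ones aldosterone regulates in each genotype.

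Endothelial cells line every vessel of the heart and hold it closed through junction proteins such as VE-cadherin, which Cdh5 encodes. They respond to VEGF and angiopoietins through receptor kinases, and they release nitric oxide, which relaxes smooth muscle, and endothelin 1, which contracts it. Pericytes and smooth muscle cells are recruited through the receptor Pdgfrb, and smooth muscle cells contract with a set of actin and myosin proteins that includes the products of Acta2, Myh11 and Cnn1. In vessels the mineralocorticoid receptor is also present in both cell classes, but the transgene studied here was targeted to cardiomyocytes.

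Nr3c2, the gene of the mineralocorticoid receptor, was higher in every MR-Cardio mouse than in any Ctrl mouse. Its log2 ratio averaged 3.97 ± 0.84 (SD, n = 6) in MR-Cardio mice given aldosterone, 3.21 ± 0.72 (SD, n = 7) in untreated MR-Cardio mice, 0.22 ± 0.17 (SD, n = 5) in Ctrl mice given aldosterone and 0.43 ± 0.14 (SD, n = 5) in untreated Ctrl mice. The median ratio of an array was −0.04 to 0.12, and the lowest correlation of 2 arrays was 0.855. The slope of the spike-in control probes was 1.003 to 1.029 on the MR-Cardio arrays and 0.964 to 0.982 on the Ctrl arrays, with no overlap. All 10 liver marker genes, which mainly report the reference pool, were lower in MR-Cardio mice, with a median difference of −0.83 with aldosterone and −0.92 without it. Genotype and this property of the arrays cannot be told apart, and the results with every array divided by its slope are given where they differ. MR-Cardio mouse 1 of the aldosterone group stood apart, with a mean over the 23 endothelial genes of 0.77 against 1.22 to 1.48 in the other mice of its group. Values without it are given for calls and class medians that it changes and for some of the members whose differences it moves.

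The mean log2 ratio of each class lay above 0 in every mouse, which means above the pooled tissues. Over the 23 endothelial genes it was 1.25 ± 0.26 (SD, n = 6) in MR-Cardio mice with aldosterone, 1.21 ± 0.07 (SD, n = 7) in untreated MR-Cardio mice, 1.30 ± 0.03 (SD, n = 5) in Ctrl mice with aldosterone and 1.27 ± 0.08 (SD, n = 5) in untreated Ctrl mice. Over the 10 mural genes it was 1.54 ± 0.14, 1.40 ± 0.19, 1.23 ± 0.08 and 1.19 ± 0.15 in the same groups.

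Untreated MR-Cardio mice differed from untreated Ctrl mice in 4 of the 33 measured genes, all higher in MR-Cardio. The endothelial genes were Vwf, which encodes von Willebrand factor, the platelet-binding protein that endothelial cells store and secrete, and Edn1, which encodes endothelin 1 and is a gene that cardiomyocytes can also express. The mural genes were Pdgfrb, the receptor for platelet-derived growth factor on pericytes, and Cspg4, the pericyte proteoglycan NG2. Passing the test means an adjusted p under 0.05 in limma, with Benjamini-Hochberg adjustment over all 21892 genes. These 4 genes are 12.1% of the members measured, while 13.6% of all genes passed, 5.79% higher and 7.82% lower, so the vessel wall genes were called at about the rate of the array as a whole. By class, 2 of 23 endothelial genes (8.7%) and 2 of 10 mural genes (20%) passed, and none fell past the threshold.

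Promoter windows are shown for the endothelial and the contractile smooth muscle genes that rose in a genotype comparison and are listed in the RefSeq table of mouse build GRCm38.p6, which are Edn1 and Cnn1; the pericyte gene Cspg4 and Notch3 are outside this choice. The windows run from 250 bases before to 50 after the annotated start.
Edn1: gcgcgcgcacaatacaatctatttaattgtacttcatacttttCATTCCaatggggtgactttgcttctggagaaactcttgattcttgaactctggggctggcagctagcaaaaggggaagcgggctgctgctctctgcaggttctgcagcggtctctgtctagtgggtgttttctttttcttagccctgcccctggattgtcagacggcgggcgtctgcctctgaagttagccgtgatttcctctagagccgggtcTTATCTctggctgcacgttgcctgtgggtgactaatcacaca
Cnn1: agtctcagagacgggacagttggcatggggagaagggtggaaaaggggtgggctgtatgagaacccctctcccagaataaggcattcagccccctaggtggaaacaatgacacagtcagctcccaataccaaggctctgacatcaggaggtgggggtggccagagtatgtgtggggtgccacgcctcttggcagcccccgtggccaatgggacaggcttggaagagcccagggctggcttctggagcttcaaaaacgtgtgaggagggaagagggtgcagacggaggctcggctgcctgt
The Edn1 window is chr13:42301226-42301525 on the plus strand, and its capitals mark an MCAT element, CATTCC, that begins 207 bases before the start, and a GATA core, AGATAA, that is read on the opposite strand as TTATCT from position 9 of the transcript. The Cnn1 window is chr9:22099003-22099302, also on the plus strand, and held none of the 5 motifs searched on both strands: AGAACA, a half-site of corticosteroid receptors, TGANTCA, an AP-1 site, the CArG box, CATTCC and AGATAA. The table held 17 promoters of 13 endothelial members and 8 promoters of 8 mural members. AGAACA was found in 4 of 17 and 2 of 8 of them, against 18.97% of 32851 promoters of the same length, and CATTCC in 4 of 17 and 3 of 8, against 14.66%. AGATAA was found in 3 of 17 and 1 of 8 (11.18% of all), TGANTCA in 0 of 17 and 1 of 8 (7.81% of all), and the CArG box in 0 of 17 and 0 of 8 (1.63% of all). These are matches of letters in short windows and no measure of binding.

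Vwf ran from 0.09 through a median of 0.74 to 1.37 in the 7 untreated MR-Cardio mice, and was 0.19, 0.06, −0.09, 0.32 and 0.13 in the 5 untreated Ctrl mice. Of the MR-Cardio mice, 5 lay above every Ctrl mouse, while mice 1 and 2 lay within the Ctrl range. The difference was 0.57 ± 0.18 (SE), a 1.48-fold rise, with an adjusted p of 0.0346 in limma. Its 2 probes differed by 0.52 ± 0.16 (adjusted p = 0.0348) and 0.62 ± 0.25 (adjusted p = 0.112, limma) when each was fitted on its own. Edn1 ran from 1.91 through a median of 2.22 to 2.57 in untreated MR-Cardio mice, against 1.34, 2.15, 1.12, 1.74 and 2.19 in untreated Ctrl mice. Of the MR-Cardio mice, 4 of 7 lay above every Ctrl mouse, and Ctrl mice 2 and 5 lay within the MR-Cardio range. Edn1 rose by 0.48 ± 0.16 (SE), which is 1.40-fold (adjusted p = 0.0492, limma).

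Pdgfrb ran from 0.94 through 1.17 to 1.27 in untreated MR-Cardio mice, and was 0.74, 0.92, 0.80, 0.78 and 1.07 in untreated Ctrl mice. Only mouse 5 of the 7 MR-Cardio mice lay below the highest Ctrl mouse, and the rise was 0.28 ± 0.08 (SE), or 1.22-fold (adjusted p = 0.02, limma). Cspg4 ran from 1.01 through 1.26 to 1.96 in untreated MR-Cardio mice, against 0.80, 0.90, 1.03, 1.09 and 0.96 in untreated Ctrl mice. It lay above every Ctrl mouse in 6 of the 7, and MR-Cardio mice 3, 4 and 5 were well above the rest, at 1.56, 1.96 and 1.95. The rise was 0.48 ± 0.15 (SE), or 1.40-fold (adjusted p = 0.0312, limma).

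These 4 calls were close to the threshold. Without the 5 arrays whose spike-in offset lay below −0.3 (untreated MR-Cardio mice 3, 4 and 7 and mice 4 and 6 of MR-Cardio with aldosterone) none of them passed in limma, with adjusted p = 0.304 for Vwf, 0.233 for Edn1, 0.161 for Pdgfrb and 0.182 for Cspg4. The adjusted p of Vwf was 0.0561 to 0.0873 without any of MR-Cardio mice 3, 4, 5 and 7 or Ctrl mice 1, 2, 3 and 5, that of Edn1 was 0.0676 to 0.163 without any of MR-Cardio mice 1, 3, 4, 5 and 7 or Ctrl mice 1, 3 and 4, that of Cspg4 was 0.0537 to 0.0804 without any of MR-Cardio mice 3, 4 and 5 or Ctrl mice 1, 2 and 5, and that of Pdgfrb was 0.05 to 0.0630 without any of Ctrl mice 1, 3 and 4. Each kept its sign in all 23 alternatives, and Pdgfrb passed in 19 of them, Cspg4 in 13, Vwf in 11 and Edn1 in 6; with each array divided by its spike-in slope, Edn1 (adjusted p = 0.111) and Cspg4 (adjusted p = 0.0542) no longer passed in limma.

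**Figure D1:**
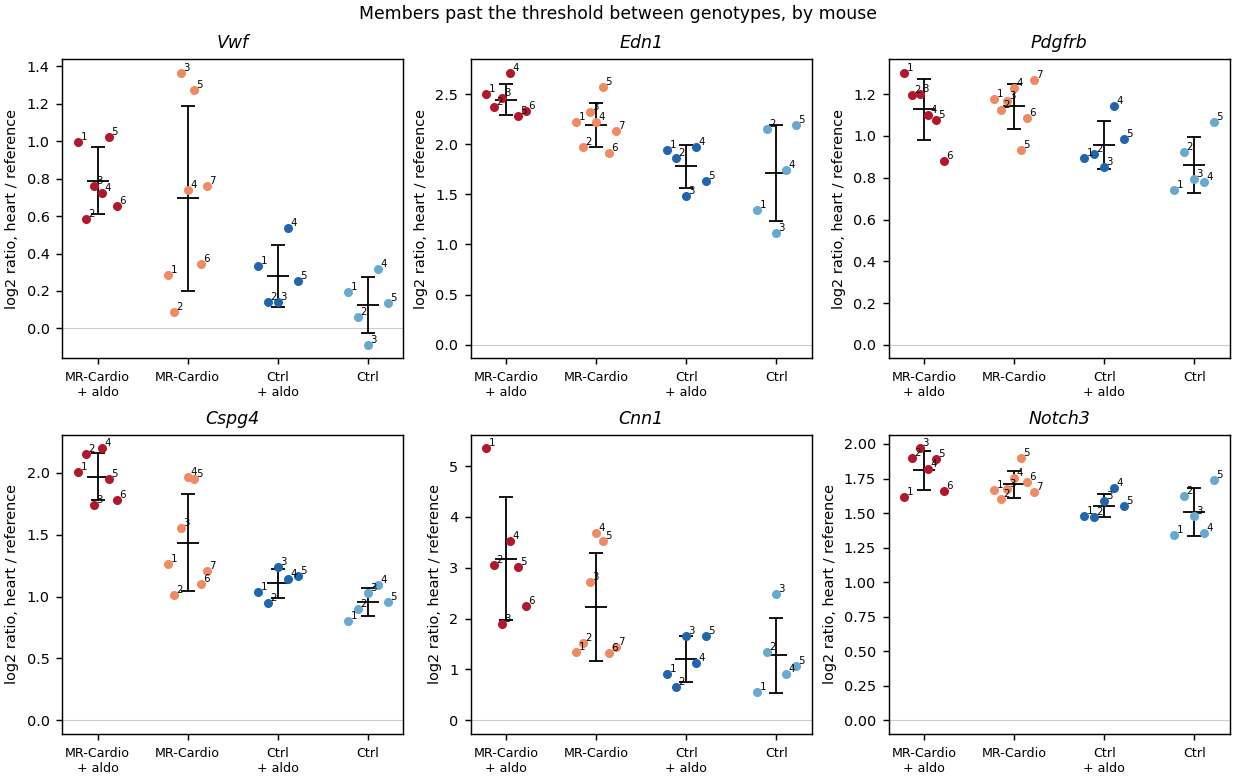
Log2 ratio of heart over the reference pool (y axis) in each mouse for the 6 genes that passed the test in a comparison of the genotypes; points are mice with their number, the wide bar is the group mean and the whiskers 1 SD, for MR-Cardio with aldosterone (n = 6), untreated MR-Cardio (n = 7), Ctrl with aldosterone (n = 5) and untreated Ctrl (n = 5). Cspg4 in MR-Cardio mice given aldosterone lies above all Ctrl mice, and untreated MR-Cardio mice 3, 4 and 5 lie highest in their group for both Cspg4 and Cnn1.

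With aldosterone given to both genotypes, 5 of 33 genes were higher in MR-Cardio mice and none was lower, which is 15.2% of the members against 25.1% of all genes, 10.7% higher and 14.4% lower. They were Vwf and Edn1 again among the endothelial genes (2 of 23, 8.7%), and Cspg4, Cnn1 and Notch3 among the mural genes (3 of 10, 30%). Cnn1 encodes calponin 1, an actin-binding protein of contractile smooth muscle, and Notch3 is the Notch receptor of mural cells. The largest difference among the members was that of Cnn1, 3.95-fold. The comparisons with and without aldosterone use different mice throughout.

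Cnn1 ran from 1.90 through a median of 3.04 to 5.35 in the 6 MR-Cardio mice given aldosterone, and was 0.90, 0.66, 1.66, 1.12 and 1.66 in the 5 Ctrl mice given aldosterone. Every MR-Cardio mouse lay above every Ctrl mouse. The difference was 1.98 ± 0.55 (SE, adjusted p = 0.0109, limma). Without MR-Cardio mouse 1, which had the value of 5.35, the difference was 1.55 (adjusted p = 0.0242, limma). In untreated mice Cnn1 ran from 1.32 through 1.53 to 3.68 in MR-Cardio, against 0.56, 1.35, 2.49, 0.92 and 1.06 in Ctrl. The untreated difference of 0.95 ± 0.53 (SE) did not pass (adjusted p = 0.258, limma), with MR-Cardio mice 3, 4 and 5 at 2.72, 3.68 and 3.53 and the other 4 at 1.32 to 1.53.

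Cspg4 ran from 1.74 through 1.98 to 2.20 in MR-Cardio mice given aldosterone, and was 1.03, 0.95, 1.24, 1.15 and 1.17 in Ctrl mice given aldosterone. The groups did not overlap, and the rise was 0.86 ± 0.15 (SE), or 1.82-fold (adjusted p = 0.000266, limma). Notch3 ran from 1.61 through 1.86 to 1.97 in MR-Cardio mice given aldosterone, against 1.48, 1.47, 1.59, 1.68 and 1.55 in Ctrl mice given aldosterone. Of the MR-Cardio mice, 4 of 6 lay above every Ctrl mouse, and the rise was 0.25 ± 0.08 (SE), or 1.19-fold (adjusted p = 0.0260, limma). In untreated mice Notch3 averaged 1.71 ± 0.10 (SD, n = 7) in MR-Cardio and 1.51 ± 0.17 (SD, n = 5) in Ctrl, a difference of 0.20 ± 0.08 (SE, adjusted p = 0.0928, limma) that passed without Ctrl mouse 5 (0.26, adjusted p = 0.0353).

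Edn1 ran from 2.28 through 2.42 to 2.71 in MR-Cardio mice given aldosterone, and was 1.94, 1.86, 1.49, 1.97 and 1.63 in Ctrl mice given aldosterone. All 6 MR-Cardio mice lay above all 5 Ctrl mice, and the rise was 0.67 ± 0.17 (SE), or 1.59-fold (adjusted p = 0.00522, limma). Vwf ran from 0.58 through 0.74 to 1.02 in MR-Cardio mice given aldosterone, against 0.33, 0.14, 0.14, 0.53 and 0.26 in Ctrl mice given aldosterone. These groups did not overlap either, and the rise was 0.51 ± 0.18 (SE), or 1.42-fold (adjusted p = 0.0438, limma). Neither of the 2 probes of Vwf passed when fitted on its own, with 0.43 ± 0.16 (adjusted p = 0.0632) and 0.59 ± 0.26 (adjusted p = 0.111, limma). Pdgfrb, which passed in untreated mice, averaged 1.13 ± 0.15 (SD, n = 6) in MR-Cardio mice with aldosterone and 0.96 ± 0.11 (SD, n = 5) in Ctrl mice with aldosterone, and the difference of 0.17 ± 0.08 (SE) did not pass (adjusted p = 0.135, limma) unless MR-Cardio mouse 6 was left out (adjusted p = 0.0446).

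Among the members, 3 of 23 endothelial and 2 of 10 mural genes did not overlap between the genotypes under aldosterone, against 16.1% of all genes. Besides the 4 genes above, this was Ednrb, which encodes the endothelin receptor that endothelial cells carry. Ednrb ran from −0.82 through −0.24 to −0.09 in MR-Cardio mice given aldosterone, and was 0.11, −0.04, −0.08, −0.03 and −0.01 in Ctrl mice given aldosterone. Its difference of −0.33 ± 0.12 (SE) lay just outside the threshold (adjusted p = 0.0519, limma), and passed without any of MR-Cardio mice 4, 5 and 6 (adjusted p = 0.0320 to 0.0487). Without MR-Cardio mouse 1, its lowest value, the difference was −0.23 (adjusted p = 0.123, limma). Fitted on their own, its 2 probes had −0.42 ± 0.15 (adjusted p = 0.0482) and −0.23 ± 0.12 (adjusted p = 0.190, limma). In untreated mice no member separated the genotypes completely, against 6.97% of all genes.

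Edn1, Cspg4 and Cnn1 passed under aldosterone in all 22 alternatives, Notch3 in 16 and Vwf in 12. Vwf did not pass with its most variable probe (adjusted p = 0.103) or with the spike-in offset as a covariate (adjusted p = 0.123, limma). The adjusted p of Vwf was 0.0574 to 0.0944 without any of MR-Cardio mice 1, 3, 4 and 5 or Ctrl mice 1, 2, 3 and 5, and that of Notch3 was 0.0515 to 0.0651 without any of MR-Cardio mice 2, 3 and 5 or Ctrl mice 1 and 2 and 0.120 with each array divided by its spike-in slope.

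**Figure D2:**
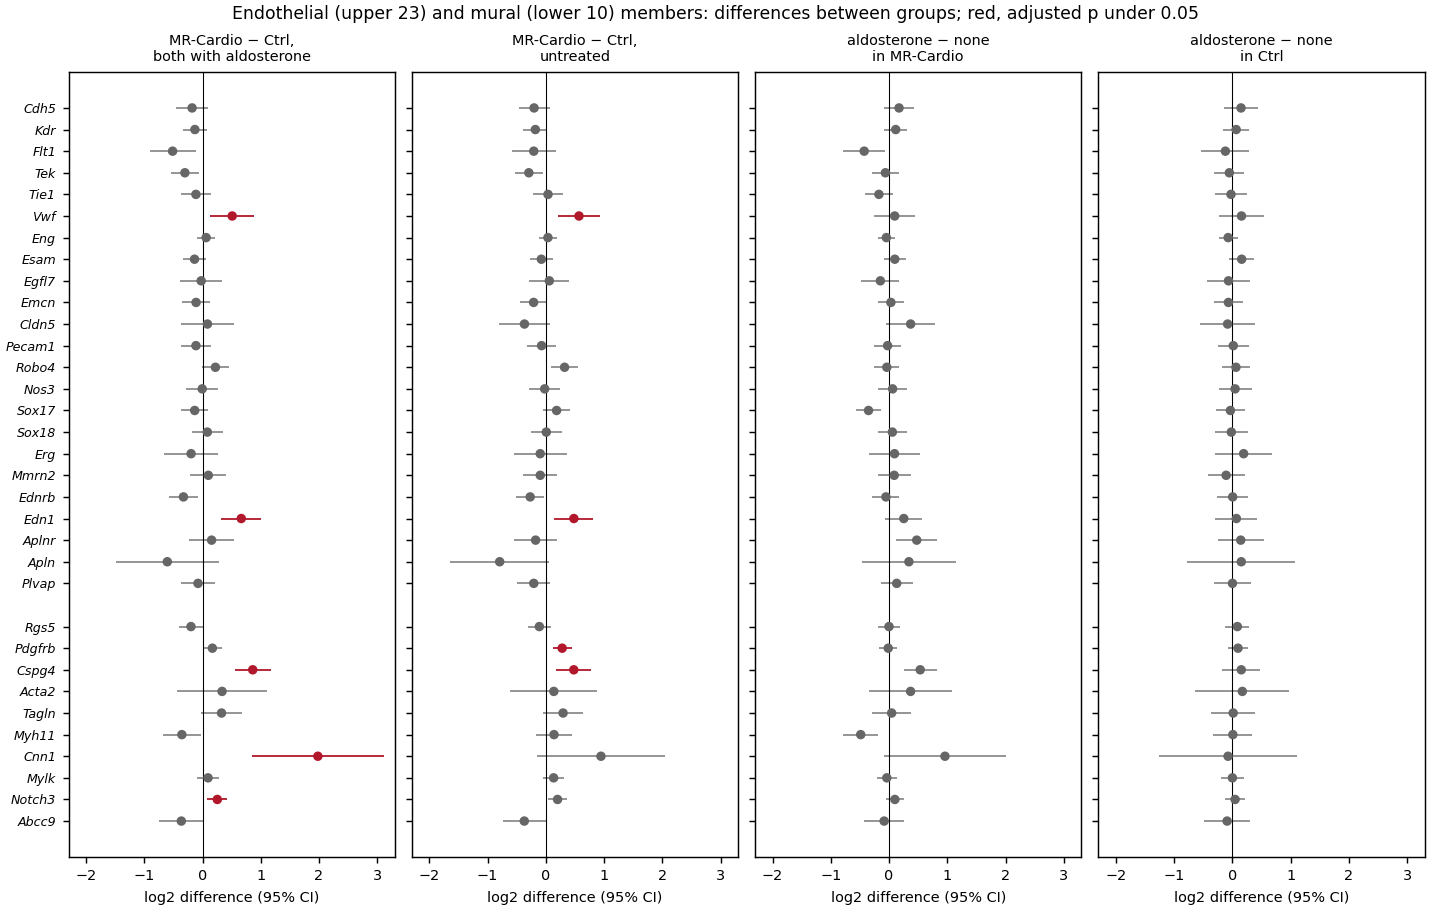
Log2 differences (x axis) with their 95% confidence intervals for the 23 endothelial genes (upper block) and the 10 mural genes (lower block) in 4 comparisons, from left to right MR-Cardio minus Ctrl with aldosterone, MR-Cardio minus Ctrl untreated, aldosterone minus none in MR-Cardio and aldosterone minus none in Ctrl. Red marks an adjusted p under 0.05, which 5, 4, 0 and 0 genes reached.

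None of the receptors of the VEGF and angiopoietin families passed. Flt1, the VEGF receptor that binds its ligand most tightly and signals weakly, had −0.51 ± 0.19 (SE, adjusted p = 0.0513, limma) with aldosterone, where it ran from 0.89 through 1.42 to 1.51 in MR-Cardio mice and was 1.45, 2.16, 2.20, 1.75 and 1.67 in Ctrl mice. Of the 6 MR-Cardio mice, 3 lay below every Ctrl mouse. Of its 3 probes fitted on their own, 2 had −0.35 ± 0.10 (adjusted p = 0.0126) and −0.31 ± 0.10 (adjusted p = 0.0256, limma), and the probe with the widest spread had −0.87 ± 0.49 (adjusted p = 0.222). The averaged gene passed without Ctrl mouse 1 of the aldosterone group (adjusted p = 0.0299) and with each array divided by its spike-in slope (adjusted p = 0.0265, limma). Without MR-Cardio mouse 1, its lowest value, the difference was −0.42 (adjusted p = 0.117, limma).

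Tek, the receptor of the angiopoietins, had −0.30 ± 0.12 (SE, adjusted p = 0.0647, limma) with aldosterone and −0.29 ± 0.11 (adjusted p = 0.0934) without it. It ran from 1.88 through 2.06 to 2.27 in MR-Cardio mice with aldosterone, against 2.56, 2.69, 2.08, 2.34 and 2.18 in Ctrl mice with aldosterone. In untreated mice it ran from 1.76 through 2.20 to 2.42, against 2.29, 2.41, 2.58, 2.51 and 2.32 in Ctrl, with 6 of 7 MR-Cardio mice below every Ctrl mouse. Divided by the spike-in slopes, Tek passed in both comparisons (adjusted p = 0.0145 with aldosterone and 0.0203 without, limma). With aldosterone it also passed without MR-Cardio mouse 4 (0.0494) or Ctrl mouse 3 (0.0303), and had −0.26 without MR-Cardio mouse 1 (adjusted p = 0.129, limma). Kdr, the main signalling receptor for VEGF, differed by −0.13 ± 0.10 (SE) with aldosterone and −0.18 ± 0.10 without it, and Tie1, the orphan partner of Tek, by −0.11 ± 0.13 and 0.04 ± 0.12. The 2 probes of Kdr had ratios of opposite sign, 0.81 ± 0.12 and −1.16 ± 0.17 (SD, n = 7) in untreated MR-Cardio mice, so its averaged ratio near 0 is not a level.

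Junction and surface genes of the endothelium gave small differences that did not pass. With aldosterone these were −0.18 ± 0.13 (SE) for Cdh5, −0.11 ± 0.12 for the adhesion molecule Pecam1, −0.14 ± 0.10 for Esam, an adhesion molecule of tight junctions, and 0.09 ± 0.22 for the tight junction protein Cldn5, which had 0.29 (adjusted p = 0.246, limma) without MR-Cardio mouse 1. Without aldosterone the same genes had −0.20 ± 0.13, −0.07 ± 0.12, −0.08 ± 0.10 and −0.37 ± 0.21. Emcn, a sialomucin of capillaries and veins, had −0.11 ± 0.11 with and −0.21 ± 0.11 without aldosterone, and Plvap, which forms the diaphragms of fenestrae and caveolae, −0.08 ± 0.14 and −0.21 ± 0.14. The Plvap ratio itself was −1.77 ± 0.31 (SD, n = 6) in MR-Cardio mice with aldosterone and −1.69 ± 0.13 (SD, n = 5) in untreated Ctrl mice, below the level of the pooled tissues. Eng, a co-receptor of the TGF-beta family, had 0.06 ± 0.08 and 0.04 ± 0.07, with 95% intervals of −0.09 to 0.22 and −0.12 to 0.19.

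Secreted, signalling and nuclear genes of the endothelium did not pass either. Egfl7, a secreted factor of growing vessels, differed by −0.02 ± 0.17 (SE) with and 0.06 ± 0.17 without aldosterone, and Mmrn2, a matrix protein of the endothelium, by 0.10 ± 0.15 and −0.10 ± 0.14. Nos3, the endothelial nitric oxide synthase, differed by −0.01 ± 0.13 and −0.02 ± 0.13. Without MR-Cardio mouse 1, the differences with aldosterone were 0.14 for Egfl7 (adjusted p = 0.490) and 0.13 for Nos3 (adjusted p = 0.296, limma). The transcription factors Erg, Sox17 and Sox18 had −0.20 ± 0.23, −0.13 ± 0.11 and 0.08 ± 0.13 with aldosterone, and −0.10 ± 0.22, 0.19 ± 0.11 and 0.01 ± 0.13 without it. The 2 probes of Erg took opposite signs, 0.16 ± 0.18 and −0.55 ± 0.36 with aldosterone and 0.13 ± 0.18 and −0.32 ± 0.35 without it. The averaged difference of Erg therefore gives no direction.

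Robo4, a guidance receptor that stabilises vessels, was nearest to the threshold in untreated mice, with 0.32 ± 0.11 (SE, adjusted p = 0.0550, limma). It ran from 1.20 through 1.39 to 1.54 in untreated MR-Cardio mice, and was 1.11, 1.05, 0.89, 1.05 and 1.22 in untreated Ctrl mice, so that 6 of 7 lay above every Ctrl mouse. With aldosterone it was 0.71 in MR-Cardio mouse 1 and 1.41 to 1.57 in the other 5, against 1.22, 1.06, 1.13, 1.18 and 1.05 in Ctrl mice. The difference of 0.22 ± 0.11 (SE, adjusted p = 0.166) became 0.35 (adjusted p = 0.00115, limma) without MR-Cardio mouse 1. In untreated mice Robo4 passed without MR-Cardio mouse 3 (adjusted p = 0.0498). It also passed there with arrays centred on their medians (0.0461), quantile normalization (0.0456), the compared groups alone (0.0241) and array quality weights (0.0106, limma). With aldosterone it also passed with array quality weights (0.30, adjusted p = 0.00905, limma). At the threshold of 0.05 it passed in no other alternative of these comparisons.

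Of the remaining mural genes, Acta2, Tagln and Myh11 encode smooth muscle actin, transgelin and the smooth muscle myosin heavy chain, and Mylk the kinase that activates that myosin. Tagln had 0.33 ± 0.17 (SE, adjusted p = 0.180, limma) with and 0.30 ± 0.17 (adjusted p = 0.263) without aldosterone, and 0.15 (adjusted p = 0.423) with aldosterone when MR-Cardio mouse 1, its highest value, was left out. Acta2 had 0.34 ± 0.37 and 0.14 ± 0.36, and Mylk 0.09 ± 0.09 and 0.13 ± 0.09. In untreated mice the 2 probes of Mylk had 0.29 ± 0.10 (adjusted p = 0.0738) and −0.02 ± 0.16 (adjusted p = 0.952, limma). Myh11 had −0.35 ± 0.15 (adjusted p = 0.1) with and 0.14 ± 0.15 without aldosterone, so the contractile genes did not all take the sign of Cnn1; without MR-Cardio mouse 1 Myh11 had −0.22 with aldosterone (adjusted p = 0.238). With each array divided by its spike-in slope Myh11 was lower with aldosterone (−0.43, adjusted p = 0.0433, limma), as it was without MR-Cardio mouse 6 (−0.44, adjusted p = 0.0427). The pericyte genes Rgs5, a regulator of G protein signalling, and Abcc9, a subunit of potassium channels, had −0.20 ± 0.10 (adjusted p = 0.140) and −0.36 ± 0.18 (adjusted p = 0.153) with aldosterone, and −0.11 ± 0.09 and −0.37 ± 0.18 without it. Without MR-Cardio mouse 1 they had −0.11 (adjusted p = 0.322) and −0.23 (adjusted p = 0.344, limma) with aldosterone. With aldosterone, Rgs5 passed when arrays were divided by the spike-in slope (−0.28, adjusted p = 0.0391) and under no other alternative.

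Over each class the medians stood beside those of all genes as follows. The median difference over the 23 endothelial genes was −0.11 with and −0.10 without aldosterone, with 8 genes higher and 15 lower by value in each comparison, and that over the 10 mural genes was 0.21 and 0.17, with 7 and 8 genes higher. The medians over all genes were −0.04 and −0.01. Without mouse 1 of MR-Cardio with aldosterone, the endothelial median with aldosterone was −0.01, with 11 genes higher and 12 lower, and the mural median was 0.16, with 7 higher. Cdh5 then had −0.05, Pecam1 −0.01, Kdr −0.02 and Tie1 0.01, so the endothelial values below 0 with aldosterone rested in part on that mouse.

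Aldosterone left no vessel wall gene past the threshold in Ctrl mice. None of the 33 genes passed limma's test, none had an unadjusted p under 0.05, and 0% of all genes passed, with 1036 of 21892 at an unadjusted p under 0.05. Differences ran from −0.12 to 0.19 over the endothelial genes and from −0.09 to 0.17 over the mural genes. The endothelial genes with the smallest p were Esam (0.16 ± 0.10, SE), Cdh5 (0.15 ± 0.14) and Eng (−0.07 ± 0.08), and the mural genes were Pdgfrb (0.10 ± 0.08), Cspg4 (0.15 ± 0.16) and Rgs5 (0.09 ± 0.10). No member separated the Ctrl mice with aldosterone from those without it, against 1.61% of all genes.

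In MR-Cardio mice aldosterone again left none of the 33 genes past the threshold, against 1.43% of all genes. An unadjusted p under 0.05 in limma was found for 5 of the 33 members and for 3109 of 21892 genes in all. The 5 members were Sox17, Aplnr, the receptor of apelin, and Flt1 among the endothelial genes and Cspg4 and Myh11 among the mural genes. Cspg4 had 0.53 ± 0.14 (SE, adjusted p = 0.0547, limma) and averaged 1.97 ± 0.19 (SD, n = 6) with aldosterone and 1.44 ± 0.39 (SD, n = 7) without it. Of the 6 mice with aldosterone, 3 lay above every untreated MR-Cardio mouse. Cspg4 passed when any of MR-Cardio mouse 3 with aldosterone (adjusted p = 0.0421) or untreated mice 4 (0.0166) and 5 (0.0110) was left out.

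Myh11 had −0.49 ± 0.14 (SE, adjusted p = 0.0907, limma) with aldosterone in MR-Cardio mice, where it ran from 0.88 through 1.69 to 1.96, against 1.86 through 2.05 to 2.26 in untreated MR-Cardio mice. Of the mice with aldosterone, 5 of 6 lay below every untreated MR-Cardio mouse, and without the exception, mouse 6, the gene passed (−0.57, adjusted p = 0.0492). Sox17, which specifies arterial endothelium, had −0.35 ± 0.10 (SE, adjusted p = 0.0935, limma) and ran from 1.17 through 1.31 to 1.43 with aldosterone, against 1.36 through 1.71 to 1.99 without it. Aplnr had 0.47 ± 0.17 (SE, adjusted p = 0.176), with values of 1.51 through 2.35 to 2.96 with aldosterone against 1.34 through 1.81 to 2.04 without it, and passed without MR-Cardio mouse 1 of the aldosterone group (0.63, adjusted p = 0.0458, limma). Flt1 had −0.43 ± 0.17 (SE, adjusted p = 0.247), and of its 3 probes fitted on their own 1 passed (−0.41 ± 0.09, adjusted p = 0.0311, limma). Flt1 (adjusted p = 0.0399) and Sox17 (adjusted p = 0.0373) passed without untreated MR-Cardio mouse 5. No member separated these groups, against 0.544% of all genes. Of the 23 endothelial genes, 14 were higher and 9 lower by value with aldosterone (median 0.06), and without mouse 1 of the aldosterone group 19 were higher and 4 lower (median 0.10). Without that mouse Cnn1 had 0.53 with aldosterone in place of 0.96 (adjusted p = 0.706, limma), Apln 0.75 in place of 0.34 (adjusted p = 0.287) and Cldn5 0.58 in place of 0.37 (adjusted p = 0.0968).

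The difference between the genotypes in their response to aldosterone passed for none of the 33 genes, and 0% of all genes passed it, with 1197 of 21892 at an unadjusted p under 0.05. The only member with an unadjusted p under 0.05 was Myh11, at −0.50 ± 0.22 (SE, adjusted p = 0.901, limma). Cnn1 had 1.03 ± 0.76, with a 95% interval of −0.55 to 2.62. A difference in response was therefore not detectable for Cnn1, although its genotype difference was 1.98 with and 0.95 without aldosterone.

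Apln, which encodes the peptide apelin, varied widely between MR-Cardio mice. It ran from −0.85 through 1.33 to 2.30 in MR-Cardio mice with aldosterone and from −0.20 through 1.06 to 1.50 in untreated MR-Cardio mice, while it was 1.82, 1.70, 2.08, 1.82 and 1.63 in Ctrl mice with aldosterone and 1.83, 1.70, 1.21, 1.76 and 1.78 in untreated Ctrl mice. The differences of −0.60 ± 0.43 (SE, adjusted p = 0.328, limma) with and −0.79 ± 0.41 (adjusted p = 0.220) without aldosterone did not pass, and the difference with aldosterone was −0.19 (adjusted p = 0.720) without mouse 1. With aldosterone, 3 of the 6 MR-Cardio mice lay below every Ctrl mouse and 2 above. Among untreated mice, 4 of the 7 MR-Cardio mice lay below every Ctrl mouse and 0 above. The lowest values came from mouse 1 with aldosterone and from untreated mice 3 and 4, at −0.20 and 0.05. Cldn5 was low in the same 3 mice, at −0.68, −0.47 and −0.30. The median SD over the endothelial genes was 0.29 in MR-Cardio mice with aldosterone, 0.21 in untreated MR-Cardio mice, 0.16 in Ctrl mice with aldosterone and 0.16 in untreated Ctrl mice, and over all genes it was 0.24, 0.23, 0.18 and 0.20 in the same groups.

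**Figure D3:**
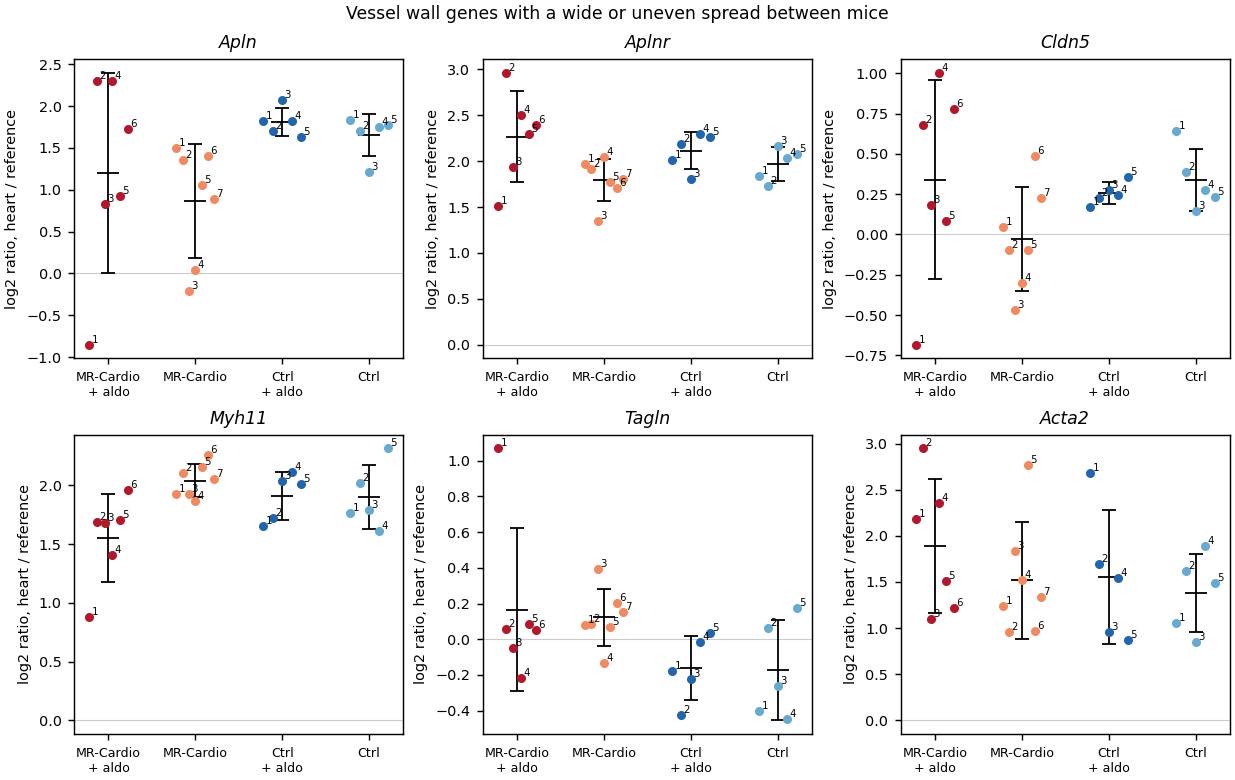
Log2 ratio of heart over the reference pool (y axis) in each mouse for Apln, Aplnr, Cldn5, Myh11, Tagln and Acta2; points are mice with their number, the wide bar is the group mean and the whiskers 1 SD, for the 4 groups from MR-Cardio with aldosterone on the left to untreated Ctrl on the right. Mouse 1 of MR-Cardio with aldosterone is the lowest of its group for Apln (−0.85), Aplnr (1.51), Cldn5 (−0.68) and Myh11 (0.88) and the highest for Tagln (1.07).

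Markers of fibroblasts and myofibroblasts moved with the genotype as well. Of 15 such genes, 8 rose in MR-Cardio mice with aldosterone (53.3%) and 4 in untreated MR-Cardio mice (26.7%), against 10.7% and 5.79% of all genes. Median differences of the 15 genes were 1.45 and 1.02, and none was lower past the threshold. Their mean log2 ratio lay between 1.32 and 3.69 in MR-Cardio mice with aldosterone, 0.58 and 2.60 in untreated MR-Cardio mice, 0.49 and 1.08 in Ctrl mice with aldosterone and 0.14 and 0.92 in untreated Ctrl mice. Pdgfrb is also expressed by fibroblasts, and Cnn1 and Acta2 by myofibroblasts. Among untreated MR-Cardio mice the fibroblast mean was 2.60, 2.35, 1.67 and 2.15 in mice 3, 4, 5 and 7 and 0.58 to 0.79 in mice 1, 2 and 6, and mice 3, 4 and 5 were those with the highest Cnn1 and Cspg4, whereas mouse 7 had 1.44 for Cnn1 and 1.21 for Cspg4. Vwf was 1.37, 0.74, 1.28 and 0.76 in mice 3, 4, 5 and 7 and 0.09 to 0.34 in mice 1, 2 and 6. The arrays of mice 3, 4 and 7 had spike-in offsets of −0.38, −0.50 and −0.34, and those of mice 1, 2, 5 and 6 had 0.17 to 0.28. The part of fibroblasts or of the spike-in offset in these values was not tested, and a ratio to a tissue pool does not show whether a marker is absent.

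Over all genes, 14.4% were lower past the threshold in MR-Cardio mice with aldosterone and 7.82% in untreated MR-Cardio mice. Of 13 cardiomyocyte markers, 2 were lower with aldosterone (15.4%) and 3 without it (23.1%), and none was higher past the threshold. Their mean was 1.37 to 2.19 in MR-Cardio mice with aldosterone, 1.98 to 2.36 in untreated MR-Cardio mice, 2.12 to 2.47 in Ctrl mice with aldosterone and 2.07 to 2.39 in untreated Ctrl mice. Of 12 macrophage markers, 1 rose with aldosterone (8.33%) and 0 without it, against 10.7% and 5.79% of all genes. MR-Cardio mouse 1 of the aldosterone group had the lowest cardiomyocyte mean (1.37), the highest fibroblast mean (3.69) and the highest Cnn1 (5.35), and it was the lowest of its group for 18 of the 23 endothelial genes. The part of this makeup in the endothelial values was not tested.

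**Figure D4:**
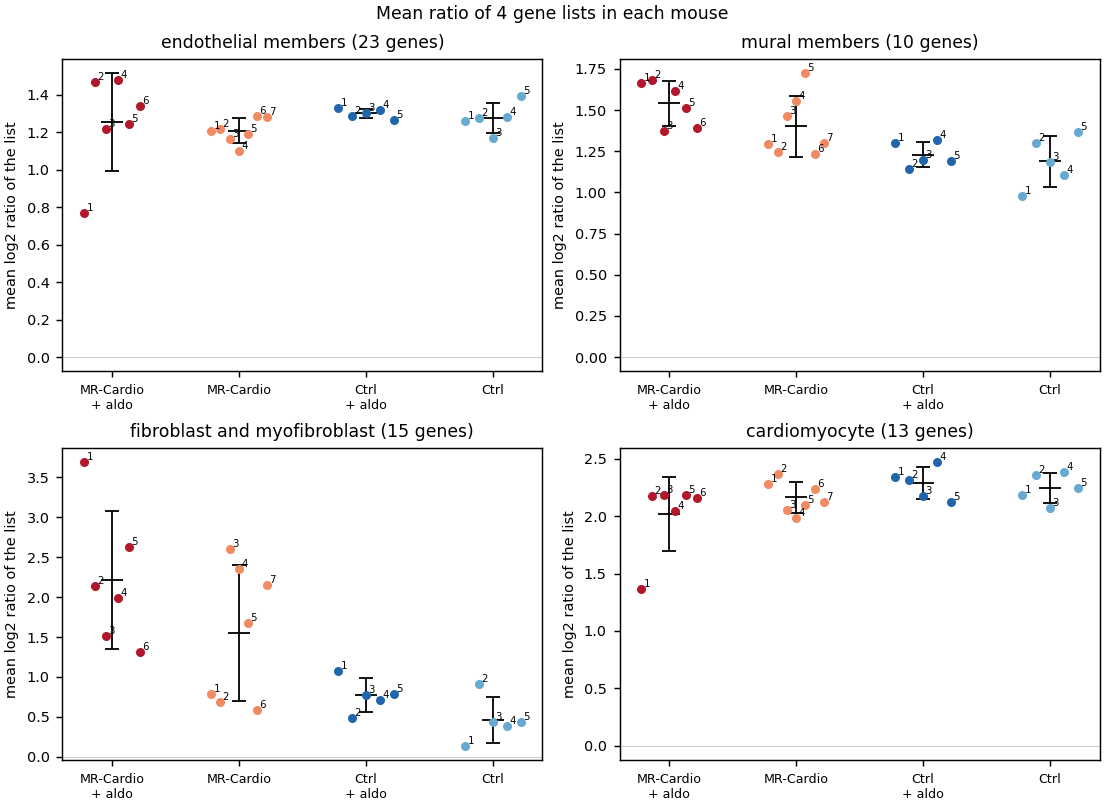
Mean log2 ratio (y axis) over the 23 endothelial genes, the 10 mural genes, 15 fibroblast and myofibroblast markers and 13 cardiomyocyte markers in each mouse; points are mice with their number, the wide bar is the group mean and the whiskers 1 SD, for MR-Cardio with aldosterone (n = 6), untreated MR-Cardio (n = 7), Ctrl with aldosterone (n = 5) and untreated Ctrl (n = 5). Mouse 1 of MR-Cardio with aldosterone lies apart in the endothelial (0.77), fibroblast (3.69) and cardiomyocyte (1.37) panels.

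Other genes of the vessel wall were counted in the same way, and the difference between the classes was not tested. Of 30 other endothelial genes, 1 rose with aldosterone (3.33%) and none without it, and none fell. The 1 was Gja4, an arterial connexin, with 0.35 ± 0.10 (SE, adjusted p = 0.0107, limma). Of 23 other mural genes, 7 rose with aldosterone (30.4%) and 5 without it (21.7%), and none fell. Over all genes 25.1% passed with aldosterone, 10.7% higher and 14.4% lower. Without aldosterone 13.6% of all genes passed, 5.79% higher and 7.82% lower. These shares stand beside every list in the paragraphs that follow as well. Ndufa4l2, a mitochondrial protein enriched in pericytes, averaged 1.98 ± 0.08 (SD, n = 6) in MR-Cardio mice with aldosterone, 1.84 ± 0.10 (SD, n = 7) in untreated MR-Cardio mice, 1.60 ± 0.14 (SD, n = 5) in Ctrl mice with aldosterone and 1.49 ± 0.12 (SD, n = 5) in untreated Ctrl mice. It rose by 0.38 ± 0.07 (SE, adjusted p = 0.000541) with aldosterone and 0.35 ± 0.07 (adjusted p = 0.00188, limma) without it, and the genotypes did not overlap in either comparison. Prkg1, the kinase through which nitric oxide relaxes smooth muscle, rose by 0.43 ± 0.10 with and 0.52 ± 0.09 without aldosterone. Des, a filament protein of muscle that cardiomyocytes also make in quantity, rose by 1.30 ± 0.20 and 0.69 ± 0.19. Mrtfa, a coactivator of contractile genes, rose by 0.31 ± 0.07 with aldosterone, and Gucy1a1, a subunit of the receptor for nitric oxide, by 0.34 ± 0.10 without it.

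Among 25 ligands, receptors and Notch partners of vessel growth, 1 rose and 3 fell in MR-Cardio mice with aldosterone (16%), and 2 rose and 1 fell without it (12%). Hes1, a transcriptional repressor that Notch induces, rose by 0.68 ± 0.14 (SE, adjusted p = 0.000993) with and 0.55 ± 0.13 (adjusted p = 0.00838, limma) without aldosterone. Notch1, the Notch receptor of endothelium and other cells, fell by 0.74 with aldosterone (SE 0.17, adjusted p = 0.00298) and had −0.09 ± 0.16 without it. Pdgfa, a ligand of platelet-derived growth factor receptors, fell in both comparisons, by 0.23 with and by 0.27 without aldosterone, and Epas1, the hypoxia factor HIF-2 alpha, fell by 0.20 with aldosterone. Vegfc, the growth factor of lymphatic vessels, rose by 0.48 ± 0.15 in untreated mice (adjusted p = 0.0384) and had 0.38 ± 0.16 with aldosterone (adjusted p = 0.0838, limma). Vegfa, the main ligand of Kdr and Flt1, had −0.07 ± 0.14 and −0.01 ± 0.13.

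Edn3, which encodes endothelin 3, a further ligand of Ednrb, had the largest differences in the endothelin, apelin and nitric oxide list. It ran from 2.65 to 5.45 in MR-Cardio mice with aldosterone and from 1.32 to 4.83 in untreated MR-Cardio mice, and was 2.15, 0.69, 1.81, 0.67 and 1.09 in Ctrl mice with aldosterone and 0.46, 0.93, −0.69, 0.63 and −0.13 in untreated Ctrl mice. The genotypes did not overlap in either comparison. Edn3 rose by 3.10 ± 0.56 (SE, 8.56-fold, adjusted p = 0.000392) with and by 3.26 ± 0.54 (9.55-fold, adjusted p = 0.000365, limma) without aldosterone. Of the 14 measured genes of that list, 2 rose and 3 fell with aldosterone (35.7%), and 1 rose and 2 fell without it (21.4%). Ece1, the enzyme that releases active endothelin, rose by 0.41 ± 0.15 with aldosterone (adjusted p = 0.0490), Agtr1a, an angiotensin receptor, fell by 0.88, and Mme, a peptidase that degrades vasoactive peptides, fell by 0.90 without aldosterone. Arg1, an arginase that is abundant in liver, fell by 0.88 with and 0.65 without aldosterone, with no group mean above −5.46.

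Of 6 measured endocardial and lymphatic genes, 1 rose and 1 fell in each genotype comparison (33.3%). Prox1, a transcription factor of lymphatic endothelium that cardiomyocytes also express, was 0.67 to 1.10 in MR-Cardio mice with aldosterone and 0.80 to 1.18 in untreated MR-Cardio mice, against 1.58, 1.61, 1.45, 1.61 and 1.50 in Ctrl mice with aldosterone and 1.31, 1.69, 1.36, 1.29 and 1.60 in untreated Ctrl mice. It fell by 0.66 (SE 0.10, adjusted p = 5.09e-05) with and by 0.46 (SE 0.09, adjusted p = 0.00219, limma) without aldosterone, with no overlap between the genotypes. Npr3, the clearance receptor of natriuretic peptides, rose by 0.54 ± 0.15 in untreated mice, and Reln, which lymphatic endothelium secretes, rose by 1.04 ± 0.29 with aldosterone. Aldosterone left none of these other vessel wall genes past the threshold in either genotype.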

How the data were processed

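Total RNA from ventricles of 23 male mice was labelled with Cy5 and hybridised with a Cy3-labelled tissue pool on 2-colour arrays, 1 array per mouse and all in the same dye orientation, per the labels. The submitters' processing notes name Agilent Feature Extraction, version 10.7.3.1. The authors deposited log2 ratios, 1 per probe and array. Base and sign were inferred from the values (spike-in probes and tissue genes), and the sources used here do not give the background correction or the within-array normalization.

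After removal of 56 control probes, 39429 probes remained, of which 30625 had 1 gene symbol, 0 had several and 8804 were unnamed here. The probes of each gene were averaged (21892 genes). Gene identifiers of 30331 probes matched the RefSeq gene table, and 0 symbols changed. Signal over background was not analysed here.

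Groups came from the labels, and each mouse has its own animal number there. Differences were tested with limma 3.58.1 (R 4.3.3; lmFit, eBayes, 1 mean per group over all 23 arrays), two-sided, with Benjamini-Hochberg adjustment over all genes and a threshold of 0.05. The contrasts were MR-Cardio minus Ctrl with and without aldosterone, aldosterone minus none in each genotype, and their interaction. The fit was tested on simulated data. The text gives full values for members past the threshold in a comparison (or the 3 smallest p per class), all members by name, and up to 4 called genes per further list; 10 such lists held 157 genes, 154 of them measured. The members and lists were chosen with earlier results of these data known. Promoters are from RefSeq. Alternatives concerned scaling, probe choice, filtering, the fit, the sample number as a block and each mouse left out; 2 on the spike-in offset were chosen after seeing the data.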

Additional observations from a re-analysis of the deposited data

Results flagged for a closer look

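In groups of 5 to 7 mice, 172 series of values were examined for a mouse far from the others of its group by Dixon's test, and 15 were set apart, which is 8.72%; chance sets apart about 1 in 20. MR-Cardio mouse 1 of the aldosterone group accounts for 10 of the 15. It was the lowest of its group for Egfl7 (1.21), Eng (0.65), Nos3 (1.49), Robo4 (0.71), Sox18 (1.27), Tie1 (1.06), Rgs5 (1.25) and Mylk (−0.0363), and for the mean over the 23 endothelial genes (0.77), and it was the highest for Tagln (1.07). These 10 flags share a mouse and are not independent. Without this mouse, Robo4 under aldosterone had a genotype difference of 0.35 (adjusted p = 0.00115, limma), Vwf had 0.47 (adjusted p = 0.0845), and the aldosterone difference of Aplnr in MR-Cardio mice was 0.63 (adjusted p = 0.0458).

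Among the Ctrl mice, untreated mouse 3 was the lowest for Apln (1.21) and for Nr3c2 (0.18), and untreated mouse 5 was the highest for Mylk (0.42). Ctrl mouse 3 of the aldosterone group was the lowest for Kdr (−0.0113) and for Sox17 (1.13).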

How the results depend on the processing

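No member reversed its direction past the threshold under any alternative; where neither the reported fit nor the alternative passed, the sign changed in 16 of 725 fits with aldosterone, 21 of 758 untreated, 48 of 791 for aldosterone in MR-Cardio mice, 54 of 659 in Ctrl mice and 81 of 1088 for the interaction. For the untreated genotype comparison, the 2 endothelial calls became 1 with the most variable probe, with the genes of lowest mean ratio left out, with the compared groups alone, with trend and robust eBayes and with the replicate block, 4 at a threshold of 0.1, and 0 with the spike-in offset as a covariate or without the 5 arrays of low offset. With the compared groups alone the 1 gene was Robo4 (adjusted p = 0.0241), while Vwf (0.115) and Edn1 (0.131) no longer passed (limma). Median centring and spike-in slopes kept a count of 2, but Edn1 dropped out (adjusted p = 0.0515 and 0.111, limma). Robo4 took its place with median centring and Tek with spike-in slopes. The 2 mural calls became 1 with spike-in slopes, the compared groups alone or the offset covariate, and 0 without those 5 arrays. Under aldosterone the 2 endothelial calls became 4 with spike-in slopes, 5 at 0.1 and 4 without the low-offset arrays. For aldosterone in MR-Cardio mice the counts of 0 became 1 endothelial and 2 mural genes at 0.1. With each mouse left out in turn, endothelial and mural calls ran from 0 to 2 and 0 to 2 untreated, 1 to 3 and 2 to 5 with aldosterone, 0 to 2 and 0 to 1 for aldosterone in MR-Cardio mice, and stayed at 0 in Ctrl mice and for the interaction. Over all genes, the 2978 untreated calls became 1614 without the genes of lowest ratio and 1086 without the low-offset arrays; the 314 calls for aldosterone in MR-Cardio mice became 94 without the genes of lowest ratio, 0 with the groups alone, 154 with the replicate block, 680 at 0.1 and 138 to 697 with a mouse left out; the 0 in Ctrl mice became 8 with the groups alone.

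Sample numbers recur between groups, but the deviations of same-numbered mice correlated by −0.16 to 0.28 over 21 pairs, over 0.1 in 3, so the number was not taken as a pairing. The replicate block removed the call of Edn1 in untreated mice (adjusted p = 0.0640) and added those of Flt1 (−0.57, adjusted p = 0.0190) and Myh11 (−0.42, adjusted p = 0.0235) with aldosterone (limma); it changed no other call of a member. The alternatives on the spike-in offset were chosen after seeing the data. Group sizes of 5 to 7 limit precision, signal over background was not used here, and the cause of each change was not tested.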
